A study of Homo sapiens with 42 samples.

Results

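The translation initiation factors are the proteins that bring the ribosome, the initiator tRNA and the mRNA together at a start codon. Transcripts of 42 genes named EIF were examined, chosen by symbol from factor complexes, out of 50648 genes in the tables. All 42 were found and 41 had enough counts to be tested in every line. The exception was EIF4E3, which had no counts in any library of the line 697. Gene expression had been measured by RNA sequencing in 7 acute lymphoblastic leukaemia (ALL) cell lines, each treated with L-asparaginase at 1 IU/ml for 4 h or left untreated. The drug is an enzyme that hydrolyses free asparagine and, less readily, glutamine. CEM and DND41 are T-cell leukaemia lines. Nalm6, SUPB15 (with a BCR-ABL1 fusion), RS411 (KMT2A-AFF1), REH (ETV6-RUNX1) and 697 are of B-cell precursor origin. Each line had 3 treated and 3 untreated libraries from what the labels call independent experiments (n = 3 per group), so that each genotype is represented by 1 cultured line. The untreated cultures are described as given no treatment, and no vehicle is mentioned.

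In the usual course of initiation, eIF2 carries the initiator tRNA to the small ribosomal subunit together with eIF1, eIF1A, eIF3 and eIF5, and eIF4F (the cap-binding eIF4E, the scaffold eIF4G and the helicase eIF4A) recruits the mRNA by its cap. Amino acid shortage restrains this pathway at the protein level at a pair of steps. Kinases such as GCN2 phosphorylate the alpha subunit of eIF2, which then blocks its exchange factor eIF2B, and loss of mTORC1 signalling leaves the 4E-BP proteins unphosphorylated, so that they bind eIF4E. The data here measure transcript levels only and hold nothing on phosphorylation or on the rate of translation.

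Library totals ran from 15.07 M to 77.14 M counts (M, mega), and the median library held 40.28 M. In CEM all treated libraries (50.81 to 71.52 M) were deeper than all untreated ones (22.68 to 31.6 M). As a check of the treatment, 5 genes of the amino acid response were higher on average. Their mean log2 fold changes were 2.59 for SESN2, 2.37 for TRIB3, 2.28 for DDIT3, 2.10 for CHAC1 and 1.07 for ASNS. In single lines, REH and CEM called all 5 higher, SUPB15 and RS411 4, and Nalm6, 697 and DND41 3. ASNS was called in 3 lines. The summed level of 7 B-lineage markers lay between 918 and 2000 CPM (counts scaled to library size, summing to 1 M) in libraries of the B-precursor lines, and that of 7 T-lineage markers between 1650 and 2320 CPM in CEM and DND41. DND41 also had 648 to 1060 CPM summed over the B-lineage markers, with 4 of the 7 at 1 CPM or more in treated and 3 in untreated cells. In 5 lines (DND41, 697, RS411, SUPB15 and Nalm6) the first untreated library, A or in 697 number 1, stood apart from its group, and the 5 deviations had a median correlation of 0.71 with each other over 8511 genes. These 5 libraries were listed by hand, and the correlation was computed among them only, so it has no value from other libraries beside it. The summed share of 5 small RNAs, picked with the counts in view, was the lowest of its group in each of the 5 libraries, at 3.35% to 7.23%. In REH untreated A was the lowest too, at 9.48% against 12.38% and 11.08%. So it was in CEM, at 9.84% against 9.88% and 10.13%. Being the lowest of the group therefore did not set the 5 apart from the other lines. A further 3 treated libraries, SUPB15 C, REH A and RS411 B, held 89, 19 and 3 genes at 1 CPM or more that had at most 3 counts over the rest of their line.

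L-asparaginase changed the initiation factor transcripts in both directions. Averaged over the 7 lines, the transcript of the eIF4E inhibitor EIF4EBP1 was 1.89-fold higher and that of the start-codon scanning factor EIF1 1.37-fold higher. The eIF3 subunit EIF3D was 1.49-fold lower, and EIF2A, an initiator tRNA carrier, and EIF4B, a helper of the eIF4A helicase, were each 1.41-fold lower. Of 41 members with an estimable mean response, 8 rose and 11 fell, 46.3% in all, where 37.4% of the 20983 genes tested were called (17.8% higher, 19.6% lower). The median log2 fold change of the members was 0.03, against -0.015 over all genes. The median SE was 0.059 for the members and 0.137 for all genes, so that members could be called at smaller changes. The shares called are therefore not on equal terms. With a log2 fold change of at least 0.3, the calls were EIF4EBP1, EIF1 and EIF6, which rose, and EIF3D, EIF2A, EIF4B, EIF4E2, EIF3E, EIF3H and EIF4EBP2, which fell (12.4% of all genes higher and 14.2% lower at that size). In RNA from whole cultures, fewer cells that make a transcript and less of it per cell cannot be told apart.

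The libraries that stood apart touched some members far more than others. For the 5 first untreated libraries, deviations were taken from the mean of the group, the library itself included. They averaged -1.27 log2 units for EIF4A1, -0.84 for EIF6 and -0.75 for EIF5A. For EIF2S2 they averaged 0.53, for EIF3A 0.56 and for EIF5B 0.80. The sign for each of these members was the same in all 5 libraries. Without them, the 8 rises were all still called and 5 more members were (with 40% of all genes called in either direction), namely EIF3J (0.34), EIF3A (0.33), EIF3C (0.33), EIF3G (0.12) and EIF4G3 (0.11), and the list of falls lost EIF3B (-0.10) and gained EIF5A (-0.15). EIF4G3 and EIF5A thereby changed sign, their values with all libraries being -0.06 and 0.02, not called. With replicate letters or numbers as a block, EIF4G1 (-0.16), EIF3C (0.19), EIF3K (0.18) and EIF4A2 (0.14) gained a call in the mean response and EIF3B (-0.11) lost it. The means of EIF5B (-0.28 with all libraries, 0.12 without the 5), EIF4A3 (0.08 and -0.07), EIF4H (0.05 and -0.06), EIF3M (-0.07 and 0.02) and EIF5 (-0.01 and 0.03) changed sign too, not called in either case. All 5 libraries are untreated.

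**Figure D1:**
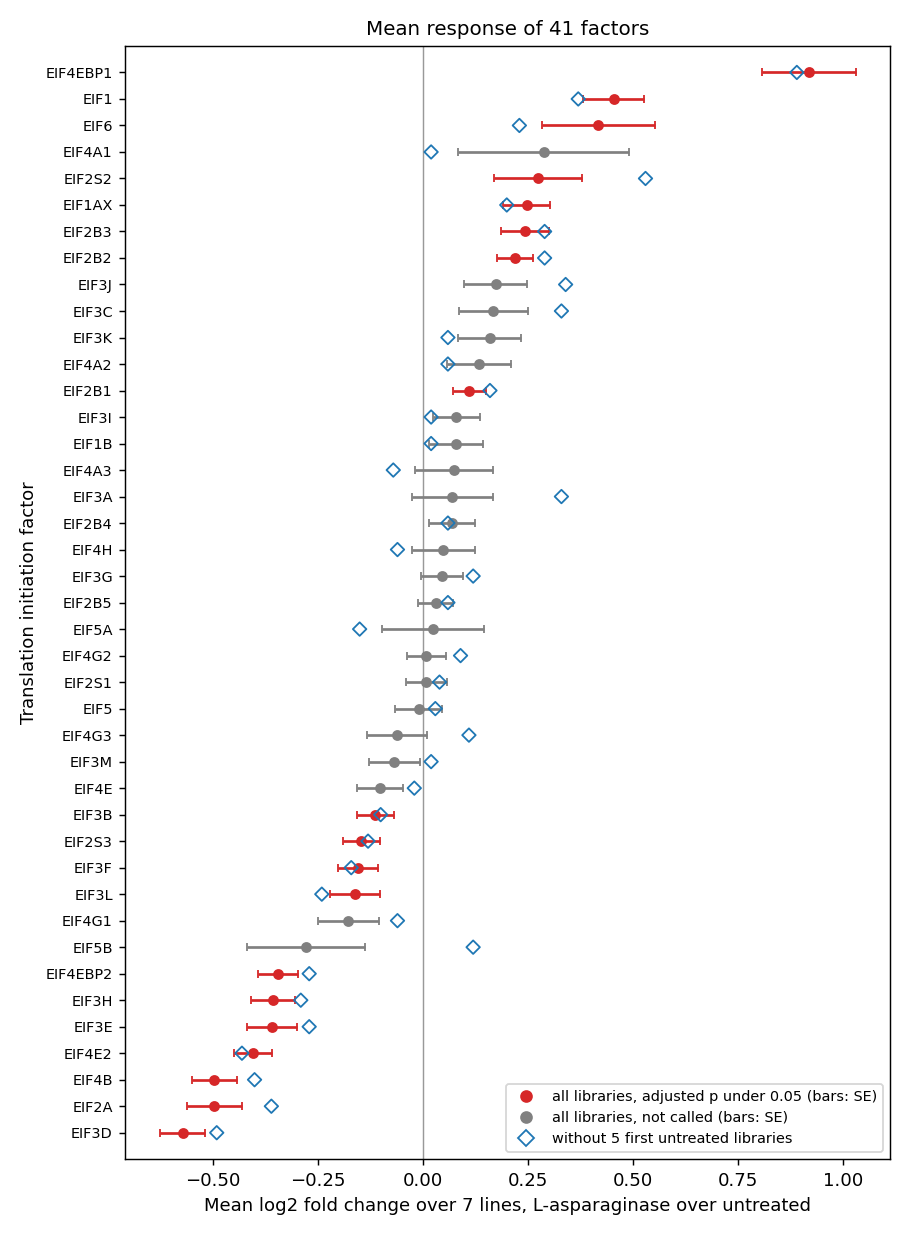
Mean log2 fold change over 7 lines, L-asparaginase over untreated, for the 41 members with an estimable mean (x axis, log2), ordered by value. Circles with bars show the estimate and its SE from all 42 libraries, red where the adjusted p was under 0.05, and open diamonds show the value without the 5 first untreated libraries. EIF4EBP1 stands at the top at 0.92 and EIF3D at the bottom at -0.57, and the diamonds of EIF5B, EIF3A, EIF4A1 and EIF2S2 lie farthest from their circles.

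Transcripts of many ribosomal proteins and some translation factors begin with a terminal oligopyrimidine (TOP) tract, a C followed by a run of C and T, which ties their translation to mTORC1 through LARP1. The first bases of the members' transcripts were therefore read from RefSeq (GRCh38.p14), which had a start for 35 of the 42, the others being EIF2S2, EIF3A, EIF3E, EIF3G, EIF3H, EIF3L and EIF4EBP1. A C at the first base followed by at least 4 bases of C or T was found in 8 of the 35 (22.9%), against 1404 of 27305 symbols (5.14%) in the same table, on the transcribed strand only. The windows below hold 20 bases before the start and 10 from it, 5′ to 3′, and the capitals mark the pyrimidine tract from the first transcribed base.
EIF3D (chr22:36529157-36529186, minus strand): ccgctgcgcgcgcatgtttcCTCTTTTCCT
EIF2A (chr3:150546767-150546796, plus strand): aactctcacccgagcggtttCTCTTTCCgg
EIF4B (chr12:53006436-53006465, plus strand): cgtgattgcctcatccgggtCTTTTgcgtt
EIF3F (chr11:7987317-7987346, plus strand): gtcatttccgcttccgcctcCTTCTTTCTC
EIF2S3 (chrX:24054936-24054965, plus strand): cagccggggtgatttccttcCTCTTTTggc
EIF3K (chr19:38619168-38619197, plus strand): gtcgtttccgtttccaccacCTCTTCCTgt
EIF4A2 (chr3:186783557-186783586, plus strand): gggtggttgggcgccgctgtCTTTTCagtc
EIF3M (chr11:32583811-32583840, plus strand): gcgtcgcgcggcccagttccCTTTTCCggt
The first 5 of these are the members with such a tract that fell in the mean response. EIF3K (0.16), EIF4A2 (0.13) and EIF3M (-0.07) were not called. Over the 8 the median log2 fold change was -0.15. Among the 26 other members with a start and a mean response, 3 fell and 6 rose, with a median of 0.06. Over all genes 19.6% were called lower and 17.8% higher, and no share was computed for the other symbols with a tract. The members without a start could not be placed on either side. Of these, EIF3E, EIF3H and EIF3L fell and EIF2S2 and EIF4EBP1 rose. The tract was looked up after the values were known and the difference was not tested, and a match is a run of letters, not evidence that the start is used in these cells.

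The first group, eIF1 and eIF1A, holds the scanning complex open until the start codon is met. EIF1 and EIF1AX rose in the mean response, and EIF1B, a close relative of EIF1, did not (0.08). EIF1 was positive in all 7 lines (mean log2 fold change 0.45 ± 0.07 SE, adjusted p = 3.02e-06). In SUPB15 it had 188, 165 and 173 CPM in treated libraries, against 73.9, 98.7 and 118 CPM in untreated ones. In RS411 the treated libraries had 141, 141 and 154 CPM and the untreated ones 82.0, 95.3 and 95.9 CPM. In CEM the treated libraries had 131, 162 and 130.3 CPM and the untreated ones 90.8, 94.7 and 84.7 CPM. Treated and untreated libraries did not overlap in any of these 3 lines, and EIF1 rose on the log2 scale in SUPB15 (0.84 ± 0.17 SE, adjusted p = 0.00722), RS411 (0.69 ± 0.10 SE, adjusted p = 0.00677) and CEM (0.66 ± 0.10 SE, adjusted p = 0.000334). In Nalm6, REH, 697 and DND41 the groups overlapped and EIF1 was not called (0.06, 0.29, 0.38 and 0.36). With the replicate letter as a block it was called in REH (0.28) and DND41 (0.34). EIF1AX rose on average (0.25 ± 0.06 SE, adjusted p = 0.000451), with calls in SUPB15 (0.50) and DND41 (0.38). EIF1B rose in RS411 alone among single lines (0.57), where its difference from other lines was not called. The call of EIF1 in RS411 was lost without L-asparaginase C (0.66). That of EIF1AX was lost in SUPB15 without L-asparaginase B (0.48), C (0.42), untreated B (0.54) or C (0.55), and in DND41 without L-asparaginase B (0.30), C (0.35), untreated B (0.38) or C (0.37). That of EIF1B was lost without L-asparaginase B (0.53), C (0.57) or untreated B (0.56). Without the 5 first untreated libraries the means were 0.37 for EIF1 and 0.20 for EIF1AX.

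The eIF2 group went both ways. EIF2S1, the alpha subunit whose phosphorylation halts initiation, had a mean of 0.01 and was called in no line without a block, and in DND41 with it (0.38). EIF2S2, the beta subunit, rose (0.27 ± 0.10 SE, adjusted p = 0.0363) and EIF2S3, the gamma subunit that binds GTP and the tRNA, fell (-0.15 ± 0.04 SE, adjusted p = 0.00759). Among single lines EIF2S2 rose in CEM (0.81 ± 0.10 SE, adjusted p = 0.000123) and REH (0.57 ± 0.14 SE, adjusted p = 0.0106). CEM had 525, 545 and 549 CPM in treated libraries, against 273, 304 and 354 CPM in untreated ones, with no overlap. In REH the call was lost without L-asparaginase B (0.50) or C (0.48). DND41 had groups that did not overlap either, without a call (0.72), and with the replicate letter as a block EIF2S2 was called there (0.78). In 697 the single high library was untreated 1, at 691 CPM against 248 and 205 CPM in untreated 2 and 3, and the log2 fold change was 0.48 without that library and -0.32 with it. The mean of EIF2S2 was 0.53 without the 5 first untreated libraries. Its call was lost with any of 19 of the 42 libraries left out (0.23 to 0.27), with the 3 treated libraries left out (0.27) and by DESeq2 (0.26). The mean call of EIF2S3 was lost with no filter on low counts (-0.13). EIF2S3 fell in SUPB15 alone among single lines (-0.55 ± 0.13 SE, adjusted p = 0.0169), and its response there was lower than in the other lines by -0.45 ± 0.13 (SE, adjusted p = 0.0384). That call in SUPB15 was lost without L-asparaginase B (-0.58) or untreated C (-0.57).

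EIF2A, despite its name, is no subunit of eIF2. It is a separate protein that can deliver the initiator tRNA and is mostly dispensable for general translation. Its transcript was negative in all 7 lines (mean -0.50 ± 0.06 SE, adjusted p = 8.4e-08), and the tract at its start is printed above. In Nalm6 the treated libraries had 110.4, 130.4 and 132 CPM, against 198, 209 and 187 CPM untreated. In SUPB15 they had 87.8, 99.8 and 103 CPM, against 180.2, 139 and 153 CPM untreated. Each treated value was below each untreated value in both, and EIF2A fell 1.56-fold in Nalm6 (-0.64 ± 0.11 SE, adjusted p = 0.00371) and 1.65-fold in SUPB15 (-0.72 ± 0.14 SE, adjusted p = 0.00615). It fell as well in CEM (-0.31) and REH (-0.37), where the call was lost without L-asparaginase B (-0.37), C (-0.38) or untreated C (-0.31). The groups were also apart in RS411 and DND41, without a call (-0.41 and -0.44, or -0.43 and called in DND41 with the replicate block), and overlapped in 697 (-0.52), where untreated 1 had 328 CPM and untreated 2 and 3 had 192 and 159.7 CPM. Without the 5 first untreated libraries the mean was -0.36.

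The 5 subunits of eIF2B, the exchange factor that recharges eIF2 with GTP, all had positive means, with a median of 0.11. EIF2B3 (0.24 ± 0.06 SE, adjusted p = 0.000726), EIF2B2 (0.22 ± 0.04 SE, adjusted p = 6.04e-05) and EIF2B1 (0.11 ± 0.04 SE, adjusted p = 0.0232) rose. EIF2B4 (0.07) and the catalytic subunit EIF2B5 (0.03) were not called. DND41, where 26.9% of all genes were called, called 3 of the 5, EIF2B3 (0.58), EIF2B2 (0.51) and EIF2B5 (0.42), and REH, where 26.5% were, called EIF2B3 (0.40). In DND41 the call was lost for EIF2B3 without L-asparaginase B (0.52), C (0.58), untreated B (0.46) or C (0.56), for EIF2B2 without L-asparaginase B (0.53), C (0.52) or untreated B (0.43) and for EIF2B5 without L-asparaginase A (0.39), B (0.39), C (0.46), untreated B (0.32) or C (0.43). In REH it was lost for EIF2B3 without L-asparaginase B (0.36), C (0.34), untreated A (0.34) or B (0.42). Without the 5 first untreated libraries EIF2B2 and EIF2B3 both had a mean of 0.29 and EIF2B1 0.16. The call of EIF2B1 was lost without untreated C of RS411, A of CEM or C of DND41, or without L-asparaginase C of Nalm6 or B of REH (0.10 in each case), and with no filter on low counts (0.12).

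The eIF3 complex, with 13 subunits the largest factor, bridges the small ribosomal subunit and eIF4G. Of its subunits 6 fell in the mean response and 7 were not called, 46.2% called against 37.4% of all genes, and the median was -0.07. The median SE of the subunits was 0.059, against 0.137 for all genes. EIF3D, EIF3E and EIF3H fell most, followed by EIF3L (-0.16), EIF3F (-0.15) and EIF3B (-0.11). No subunit was called higher by edgeR or by DESeq2 (0 each), and 3, EIF3C, EIF3J and EIF3K, were higher at an unadjusted p under 0.05. That count of 0 did not hold in other fits: edgeR without the 5 first untreated libraries called EIF3J (0.34), EIF3A (0.33), EIF3C (0.33) and EIF3G (0.12) higher, with the replicate block it called EIF3C (0.19) and EIF3K (0.18), and with no filter on low counts EIF3J (0.19). EIF3D can itself bind the cap of some mRNAs. EIF3C reads can be split with its near-identical copy EIF3CL, so its values are uncertain.

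EIF3D was the member with the largest fall, negative in all 7 lines (-0.57 ± 0.05 SE, adjusted p = 6.84e-11). DND41 had 207, 192 and 183 CPM in treated libraries, against 380.4, 304 and 349 CPM in untreated ones. SUPB15 had 197, 224 and 236 CPM in treated libraries, against 401, 327 and 340.0 CPM in untreated ones. REH had 219, 219 and 221 CPM in treated libraries, against 269, 312 and 336 CPM in untreated ones. All treated values were below all untreated values in 6 lines and overlapped in 697. EIF3D fell 1.74-fold in DND41 (-0.80 ± 0.14 SE, adjusted p = 0.00341), 1.65-fold in SUPB15 (-0.72 ± 0.14 SE, adjusted p = 0.00568) and 1.5-fold in Nalm6 (-0.59 ± 0.13 SE, adjusted p = 0.00889). It also fell in CEM (-0.57) and REH (-0.44), and was not called in RS411 (-0.45) or 697 (-0.35). The call in REH was lost without L-asparaginase C (-0.43) or untreated B (-0.43). The mean without the 5 first untreated libraries was -0.49.

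EIF3E and EIF3H were each negative in all 7 lines. EIF3E (-0.36 ± 0.06 SE, adjusted p = 6.61e-06) fell in SUPB15 (-0.72 ± 0.16 SE, adjusted p = 0.0111) and Nalm6 (-0.48 ± 0.14 SE, adjusted p = 0.0304). In SUPB15 its treated libraries had 582, 698 and 773 CPM, against 1246, 1000.3 and 1091 CPM untreated, with no overlap. In DND41 it was close to even (-0.09), with 388, 446 and 424 CPM treated and 475, 446 and 443 CPM untreated. EIF3H (-0.36 ± 0.05 SE, adjusted p = 6.21e-07) had its largest fall in DND41. In DND41 it had 106, 129.5 and 116 CPM in treated libraries, against 238, 267 and 247 CPM in untreated ones, 2.10-fold lower (-1.07 ± 0.12 SE, adjusted p = 0.000758). The response of EIF3H in DND41 was lower than in the other lines by -0.86 ± 0.15 (SE, adjusted p = 0.000249). EIF3H also fell in SUPB15 (-0.55) and lay between -0.24 and -0.10 in the other 5 lines. The call of EIF3E was lost in Nalm6 without L-asparaginase A (-0.42), B (-0.52), C (-0.49), untreated B (-0.51) or C (-0.50), and in SUPB15 without L-asparaginase B (-0.73). That of EIF3H in SUPB15 was lost without L-asparaginase A (-0.48) or B (-0.55). Without the 5 first untreated libraries the means were -0.27 for EIF3E and -0.29 for EIF3H.

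EIF3A, the scaffold of the complex, and EIF3J, a loosely bound subunit, both rose in REH, CEM and DND41. EIF3A had 864, 802 and 687 CPM in treated DND41 libraries, against 630.1, 399 and 362 CPM in untreated ones (0.78 ± 0.23 SE, adjusted p = 0.0302). EIF3J had 105, 131 and 136 CPM in treated REH libraries, against 85.6, 89.3 and 87.9 CPM in untreated ones (0.54 ± 0.10 SE, adjusted p = 0.00391). Neither pair of groups overlapped. In CEM the log2 fold changes were 0.27 for EIF3A and 0.35 for EIF3J, and EIF3J in DND41 had 0.68. In 697 both were negative without a call (-0.63 and -0.51), and there untreated 1 had 1477 CPM of EIF3A against 519.7 and 588 CPM in untreated 2 and 3, and 244 CPM of EIF3J against 134 and 115 CPM. The call of EIF3A was lost in REH without L-asparaginase A (0.40), B (0.32), C (0.46), untreated B (0.39) or C (0.31), in CEM without L-asparaginase A (0.27), B (0.22) or untreated B (0.24), and in DND41 without L-asparaginase A (0.70), B (0.76), C (0.87), untreated B (0.67) or C (0.62). That of EIF3J was lost in DND41 without L-asparaginase B (0.63), C (0.67), untreated B (0.60) or C (0.53). With all libraries the means were not called (EIF3A 0.07, EIF3J 0.17), and without the 5 first untreated libraries both were (0.33 and 0.34). The response of EIF3J in 697 was lower than in the other lines by -0.76 ± 0.22 (SE, adjusted p = 0.0212), a value that includes untreated 1.

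EIF3L, whose mean fall was small (-0.16 ± 0.06 SE, adjusted p = 0.0332), differed between lines. In DND41 it had 103, 134 and 117 CPM in treated libraries, against 154, 227 and 201 CPM in untreated ones (-0.69 ± 0.16 SE, adjusted p = 0.0113). In SUPB15 it had 197, 216 and 215 CPM in treated libraries, against 242, 317 and 304 CPM in untreated ones (-0.48 ± 0.13 SE, adjusted p = 0.0269). The groups did not overlap in either line. In 697 the log2 fold change was 0.32 without a call, with 252 CPM in untreated 1 and 404 and 339 CPM in untreated 2 and 3. Against the mean of the other lines the response was -0.65 ± 0.17 in DND41 (SE, adjusted p = 0.0191) and 0.57 ± 0.17 in 697 (SE, adjusted p = 0.0323). The mean call of EIF3L was lost with any of 16 of the 42 libraries left out (-0.16 to -0.14), and that of EIF3B with any of 26 (-0.11 to -0.10). With no filter on low counts the mean calls of EIF3L (-0.15), EIF3F (-0.14) and EIF3B (-0.10) were all lost. The mean of EIF3L was -0.24 without the 5 first untreated libraries, still called. Among the other subunits EIF3F fell in SUPB15 (-0.50) and EIF3C rose in CEM (0.33), whereas EIF3B, EIF3G, EIF3I, EIF3K and EIF3M were called in no line without a block. With the block REH called EIF3G (0.27) and EIF3K (0.19), and DND41 called EIF3C (0.56) and EIF3F (-0.32). The mean of EIF3K was 0.06 without the 5 first untreated libraries. The line calls of EIF3L were lost in SUPB15 without L-asparaginase A (-0.44), B (-0.49), C (-0.49), untreated B (-0.41) or C (-0.44), and in DND41 without L-asparaginase C (-0.68). That of EIF3F was lost without L-asparaginase B (-0.52), and that of EIF3C with any 1 of its 6 libraries left out (0.27 to 0.40).

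Among the eIF4A helicases, which unwind the leader of the mRNA, and their cofactors eIF4B and eIF4H, 1 of 5 fell, EIF4B, and 4 were not called. That is 20% called in the mean response, against 37.4% of all genes. EIF4B stimulates eIF4A and is itself a target of growth signalling. Its transcript was negative in all 7 lines (-0.50 ± 0.05 SE, adjusted p = 1.7e-09). SUPB15 had 545, 612 and 599.5 CPM in treated libraries, against 1391, 1012 and 1062 CPM in untreated ones. Nalm6 had 977, 1082 and 986 CPM in treated libraries, against 1689.8, 1534 and 1531 CPM in untreated ones. DND41 had 517, 510.5 and 491 CPM in treated libraries, against 754, 684 and 741 CPM in untreated ones. No treated value reached an untreated one in these 3 lines, in RS411 or in CEM, and the groups overlapped in REH and 697. EIF4B fell 2.00-fold in SUPB15 (-1.0 ± 0.16 SE, adjusted p = 0.00332), 1.53-fold in Nalm6 and 1.41-fold in DND41, and in SUPB15 by more than in the other lines (-0.57 ± 0.15, SE, adjusted p = 0.0319). The call was lost in Nalm6 without L-asparaginase C (-0.58), and in DND41 without L-asparaginase B (-0.51), C (-0.47) or untreated C (-0.49). Without the 5 first untreated libraries its mean was -0.40.

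EIF4A1, the main helicase, varied widely between untreated libraries. In Nalm6 it had 62.1, 78.8 and 99.2 CPM in treated libraries, against 18.4, 54.8 and 38.0 CPM in untreated ones (1.15 ± 0.30 SE, adjusted p = 0.0222). The call was lost there without L-asparaginase B (1.16) or C (0.97). The first untreated library was the lowest of its group in Nalm6, SUPB15, RS411, 697 and DND41, at 18.4, 17.1, 14.9, 12.8 and 28 CPM. The mean was 0.29 with all libraries and 0.02 without these 5, and was called in neither case. EIF4A1 overlaps a read-through transcript with SENP3 and carries small nucleolar RNAs in its introns. Its counts may therefore include other transcripts or lack reads that overlap them, since how such reads were counted is not given. EIF4A2 (0.13), EIF4A3 (0.08), a helicase of the exon junction complex, and EIF4H (0.05) were not called on average. With the block DND41 called EIF4A3 (0.37). EIF4H fell in CEM (-0.34), a call lost without L-asparaginase C (-0.30) or untreated B (-0.34).

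The cap-binding proteins were lower or not called. EIF4E, the cap-binding subunit of eIF4F, had a mean of -0.10, or -0.02 without the 5 first untreated libraries, and was called in no line. EIF4E2, a relative that binds the cap without eIF4G and is linked to repression of translation, was negative in all 7 lines (-0.40 ± 0.05 SE, adjusted p = 3.49e-09). In SUPB15 it had 35.9, 45.6 and 46.7 CPM in treated libraries, against 75.4, 84.8 and 79.8 CPM in untreated ones (-0.92 ± 0.13 SE, adjusted p = 0.00201). In CEM it had 45.0, 49.3 and 45.1 CPM in treated libraries, against 56.3, 68.3 and 72.5 CPM in untreated ones (-0.49 ± 0.10 SE, adjusted p = 0.00192). The groups were apart in both, and EIF4E2 fell as well in RS411 (-0.55) and DND41 (-0.43). Nalm6 (-0.01) and REH (-0.09) were near even. The response in SUPB15 was lower than in the other lines by -0.58 ± 0.13 (SE, adjusted p = 0.00654). In DND41 the call was lost without L-asparaginase A (-0.37), B (-0.51), C (-0.41), untreated B (-0.38) or C (-0.43). In RS411 it was lost without L-asparaginase A (-0.51), B (-0.60) or C (-0.53).

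EIF4E3, a further cap-binding relative, had at most 3.91 CPM in any library. In 697 it had 0 counts in all 6 libraries, which allows up to 0.0478 to 0.0986 CPM per library (3 counts, covering counting error only). These limits use library totals, without the scaling factors behind the other CPM values. In Nalm6 the treated libraries had 1.16, 1.10 and 1.07 CPM, against 3.88, 3.91 and 2.95 CPM in untreated ones, a 3.15-fold fall (-1.66 ± 0.23 SE, adjusted p = 0.00119). In SUPB15 the treated libraries had 1.61, 1.81 and 1.59 CPM, against 3.26, 2.27 and 3.02 CPM in untreated ones (-0.79 ± 0.23 SE, adjusted p = 0.0339). In CEM they had 1.94, 2.13 and 2.12 CPM, against 3.46, 2.75 and 3.10 CPM in untreated ones (-0.57 ± 0.17 SE, adjusted p = 0.021). The groups did not overlap in any of the 3. REH (0.19), RS411 (-0.27) and DND41 (-0.67) had no call. The call was lost in SUPB15 without L-asparaginase A (-0.77), B (-0.85), C (-0.75) or untreated C (-0.75), and in CEM without L-asparaginase A (-0.54), B (-0.60), C (-0.59) or untreated A (-0.48). With the replicate letter as a block, the call in SUPB15 was lost (-0.76).

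The 4E-BP genes, whose products compete with eIF4G for eIF4E, changed in opposite directions. EIF4EBP1 is a known target of ATF4, the transcription factor of the amino acid response. It had the largest rise of all members (0.92 ± 0.11 SE, adjusted p = 1.79e-08). REH had 101, 153 and 165 CPM in treated libraries, against 46.2, 48.8 and 43.0 CPM in untreated ones. CEM had 78.1, 86.7 and 95.2 CPM in treated libraries, against 29.2, 34.3 and 41.2 CPM in untreated ones. In 697 the treated libraries had 172, 192 and 166 CPM and the untreated ones 22.2, 82.4 and 64.2 CPM. All treated values exceeded all untreated values in these 3 lines, in SUPB15 and in DND41, and the groups overlapped in Nalm6 and RS411. EIF4EBP1 was 3.12-fold higher in REH (1.64 ± 0.16 SE, adjusted p = 9.48e-05), 2.50-fold higher in CEM (1.32 ± 0.12 SE, adjusted p = 1.26e-05), 1.79-fold higher in DND41 (0.84 ± 0.26 SE, adjusted p = 0.04) and 1.64-fold higher in SUPB15 (0.72 ± 0.13 SE, adjusted p = 0.00565). The call in DND41 was lost without L-asparaginase A (0.87), B (0.83), C (0.81), untreated B (0.65) or C (0.66).

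The lines without a call of EIF4EBP1 differed among themselves. In 697 the log2 fold change was 1.66 but the untreated libraries were spread widely, and DESeq2 called it (1.64). Without 697 untreated 1, at 22.2 CPM, the value was 1.29 and edgeR called it too. In RS411 it was 0.36, with 72.0, 131 and 136 CPM in treated and 58.9, 109 and 98.0 CPM in untreated libraries. In Nalm6 it was -0.01, with 119.7, 102 and 132 CPM in treated and 105, 151 and 108 CPM in untreated libraries. Nalm6 had the highest untreated mean of the 7 lines, 122 ± 25.9 CPM (SD, n = 3), and CEM the lowest, 34.9 ± 6.0 CPM (SD, n = 3). The response of Nalm6 was lower than that of the other lines by -1.12 ± 0.32 (SE, adjusted p = 0.0465).

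EIF4EBP2, the other 4E-BP, was negative in all 7 lines (-0.34 ± 0.05 SE, adjusted p = 2.94e-07). It fell in SUPB15 (-0.69 ± 0.13 SE, adjusted p = 0.00623), with 112, 96.9 and 88.7 CPM in treated libraries, against 167, 159 and 148 CPM in untreated ones. It fell in CEM too (-0.36), where the call was lost without L-asparaginase C (-0.27). The treated libraries were also all below the untreated ones in RS411 (-0.59), REH (-0.33) and DND41 (-0.18), not called in any of the 3. With the replicate letter as a block it was called in RS411 (-0.58) and REH (-0.34). Nalm6 (-0.01) was even for both 4E-BP genes.

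**Figure D2:**
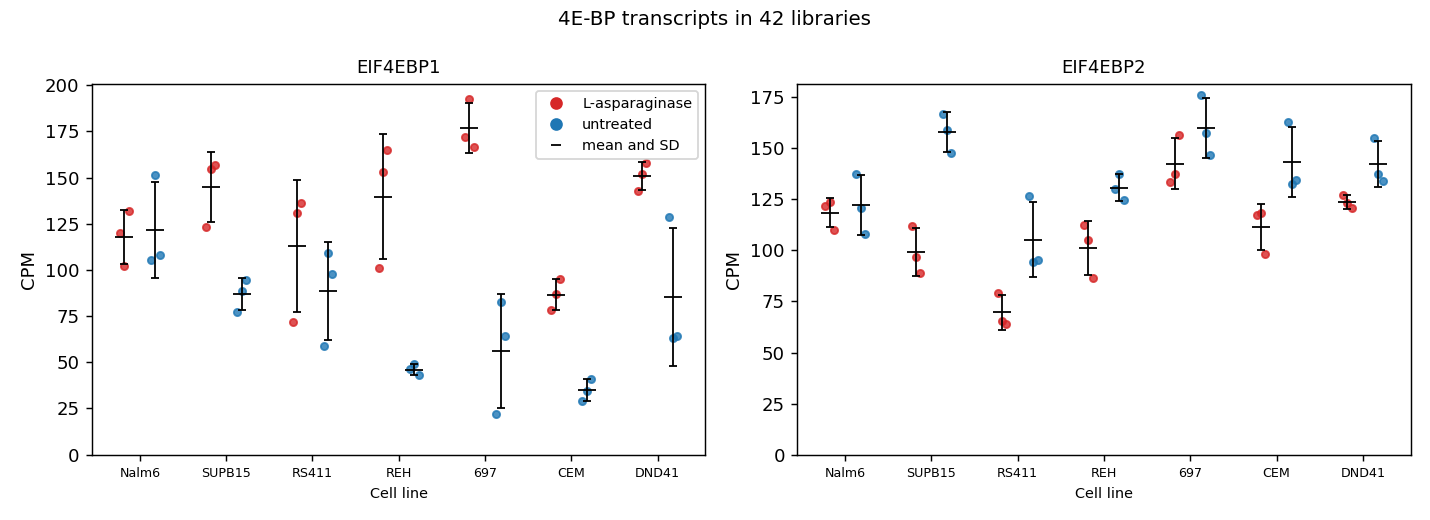
CPM (y axis, linear, from 0) of EIF4EBP1 (left) and EIF4EBP2 (right) in each of 42 libraries by cell line (x axis), L-asparaginase in red and untreated in blue, with the mean and SD of each group (n = 3) in black. EIF4EBP1 is higher in all treated than in all untreated libraries of SUPB15, REH, 697, CEM and DND41, and EIF4EBP2 is lower in all treated libraries of SUPB15, RS411, REH, CEM and DND41.

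Of the eIF4G scaffolds, edgeR called 0 of 3 in the mean response, where 37.4% of all genes were called. EIF4G1, the main scaffold, had -0.18 ± 0.07 (SE), with 1 of the 3 at an unadjusted p under 0.05 and the same 1 called by DESeq2 (-0.19). Its mean was -0.06 without the 5 first untreated libraries and was not called. It fell in RS411 (-0.60), a call lost without L-asparaginase A (-0.65), B (-0.60) or C (-0.57) or untreated C (-0.64). EIF4G2, which acts without the cap-binding protein, had 0.01 and was called in no line without a block, and in REH with it (0.34). EIF4G3 rose in REH (0.60 ± 0.11 SE, adjusted p = 0.00251), with 75.6, 74.4 and 78.3 CPM in treated libraries, against 57.1, 49.0 and 48.0 CPM in untreated ones. It fell in CEM (-0.35 ± 0.08 SE, adjusted p = 0.00408), with 51.8, 57.3 and 55.3 CPM in treated libraries, against 70.7, 67.4 and 72.9 CPM in untreated ones. The groups were apart in both lines and in SUPB15, where EIF4G3 was lower without a call (-0.54) and called with the replicate block (-0.50). The response in REH exceeded that of the other lines by 0.73 ± 0.20 (SE, adjusted p = 0.0477).

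The remaining factors are EIF5, EIF6, EIF5B and EIF5A. EIF5, the GTPase activator of eIF2, had the strongest difference between lines of all members and a mean of -0.01. In CEM it had 465, 474 and 452 CPM in treated libraries, against 339, 307 and 311 CPM in untreated ones, 1.46-fold higher (0.55 ± 0.09 SE, adjusted p = 0.000574). In DND41 it had 179.8, 262 and 239.9 CPM in treated libraries, against 444, 415 and 445 CPM in untreated ones, 1.88-fold lower (-0.91 ± 0.16 SE, adjusted p = 0.0033). The groups did not overlap in either T-cell line, in opposite directions, and overlapped in the B-precursor lines, where the log2 fold changes of Nalm6, SUPB15, RS411, REH and 697 were 0.28, -0.02, 0.19, 0.04 and -0.13. Against the mean of the other lines the response was 0.64 ± 0.16 in CEM (SE, adjusted p = 0.036) and -1.08 ± 0.16 in DND41 (SE, adjusted p = 4.3e-05). Both calls of EIF5 held with each library of the line left out.

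EIF6, which keeps the large ribosomal subunit from joining too early, was positive in all 7 lines (0.42 ± 0.13 SE, adjusted p = 0.0125). DND41 was the line that called it (0.51 ± 0.13 SE, adjusted p = 0.0192), with 69.9, 79.5 and 87.1 CPM in treated libraries, against 49.7, 55.5 and 64.1 CPM in untreated ones. In 697 the treated libraries had 31.3, 37.2 and 33.1 CPM, against 3.99, 26.1 and 24.6 CPM in untreated ones, and the log2 fold change was 0.90, or 0.43 without untreated 1. The groups were apart in these 2 lines and overlapped in the other 5. The call in DND41 was lost without L-asparaginase B (0.50), C (0.43) or untreated B (0.49). The mean was 0.23 without the 5 first untreated libraries. EIF5B, the GTPase of subunit joining, had a mean of -0.28 with all libraries and 0.12 without those 5, not called in either case. The first untreated library held 79.8 CPM in Nalm6, 89.5 in SUPB15, 94.1 in RS411, 218.5 in 697 and 62.9 in DND41, each the highest of its 6 libraries. EIF5A, which helps ribosomes over difficult peptide bonds and has the near-identical copy EIF5AL1, had a mean of 0.02, or -0.15 with a call without the 5 first untreated libraries, and fell in CEM (-0.39), a call lost without L-asparaginase C (-0.31).

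**Figure D3:**
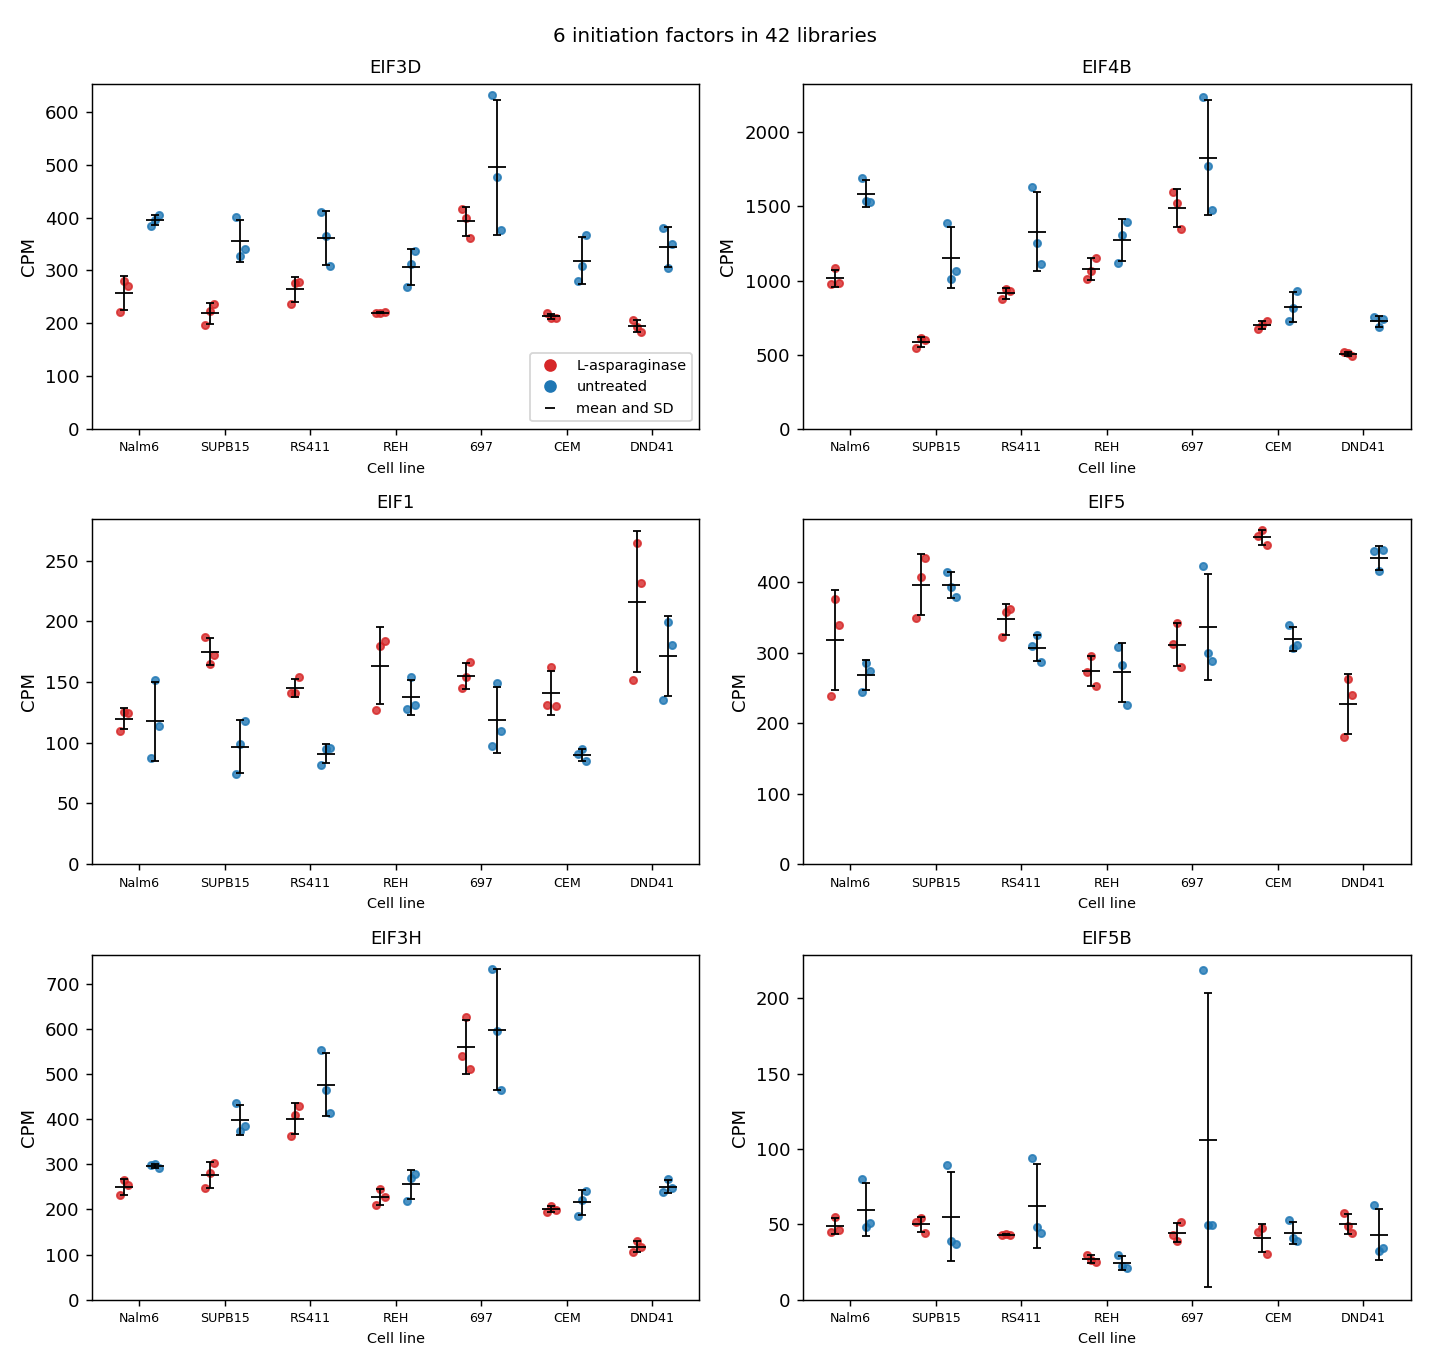
CPM (y axes, linear, from 0) of 6 initiation factors in each of 42 libraries by cell line (x axis), L-asparaginase in red and untreated in blue, with the mean and SD of each group (n = 3) in black. EIF3D and EIF4B are lower in treated cells of most lines, EIF5 is higher in treated CEM and lower in treated DND41, EIF3H drops most in DND41, and 1 untreated library of 697 stands at 218.5 CPM of EIF5B.

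The single lines differed in how many members they called. SUPB15 called 3 higher (12.9% of all genes) and 11 lower (13.2%), CEM 7 higher (19%) and 8 lower (17.7%), and DND41 8 higher (15.1%) and 6 lower (11.8%). REH called 6 higher (13.2%) and 2 lower (13.3%), Nalm6 1 higher (8.96%) and 5 lower (11.8%), and RS411 2 higher (7.58%) and 2 lower (5.19%). In 697, where 2.4% of all genes were called (1.55% higher and 0.849% lower), edgeR called 0 of 41 members, with 1 of them, EIF4EBP1, at an unadjusted p under 0.05 and called by DESeq2. As shares of the members tested these are 33.3% in SUPB15, 35.7% in CEM, 33.3% in DND41, 19% in REH, 14.3% in Nalm6 and 9.52% in RS411, against 26.1%, 36.7%, 26.9%, 26.5%, 20.8% and 12.8% of all genes in the same lines. The members' share was thus above that of all genes in SUPB15 and DND41 and below it in CEM, REH, Nalm6 and RS411. The median SE of the members was below that of all genes in every line, at 0.151 against 0.191 in SUPB15 and 0.149 against 0.194 in DND41. The median log2 fold change of the members ranged from -0.11 in RS411 to 0.11 in DND41. Of the members 7 were negative and 5 positive in all 7 lines (11.9% and 13.8% of 11722 genes).

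**Figure D4:**
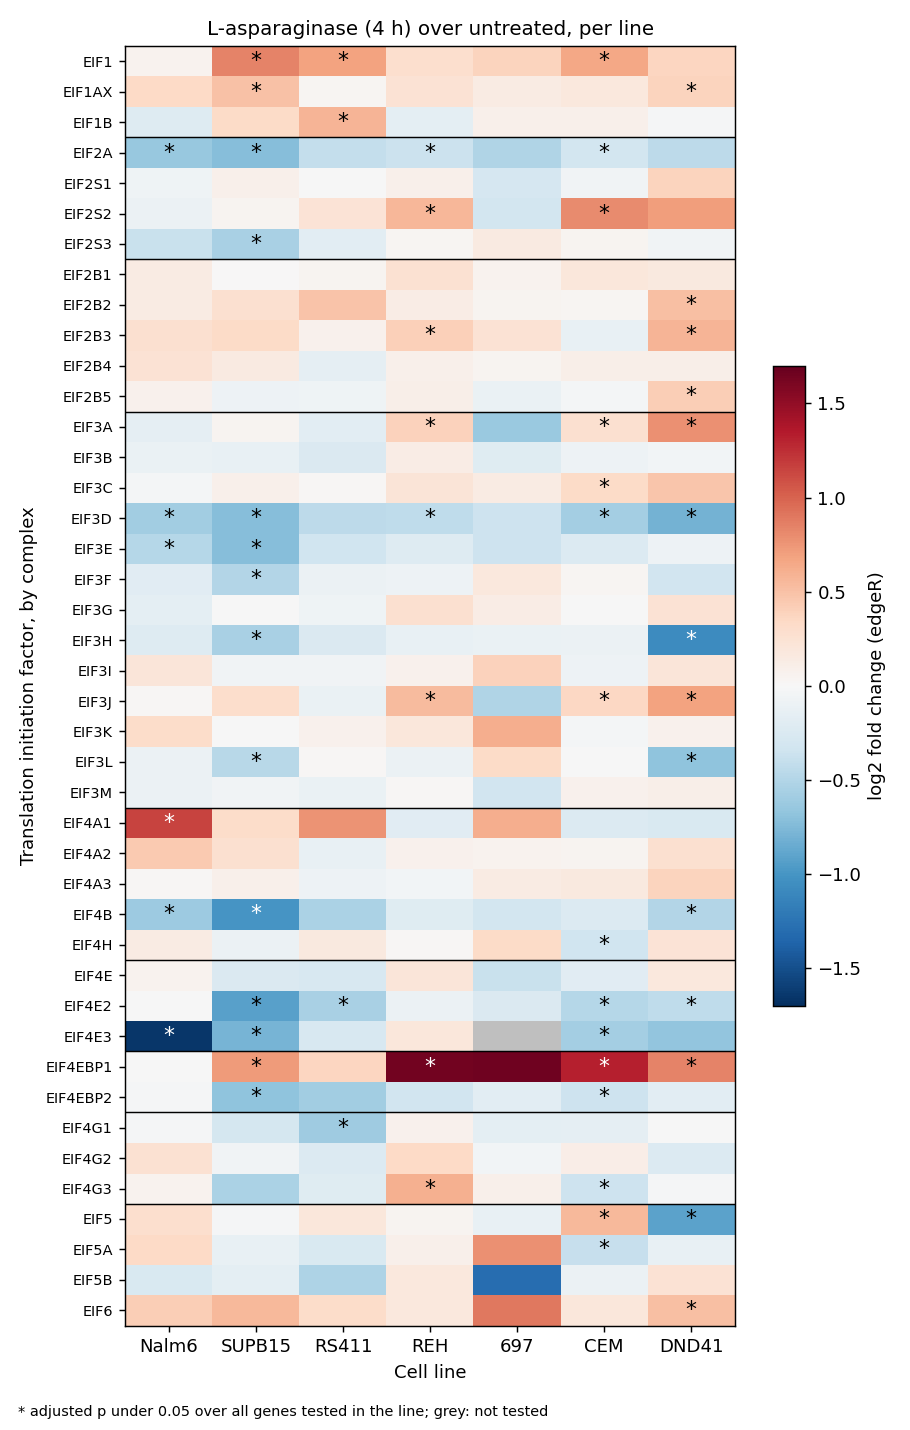
Log2 fold change, L-asparaginase over untreated, of each member (y axis, grouped by complex, lines between complexes) in each of 7 cell lines (x axis), blue for lower and red for higher, from the separate edgeR model of each line. Asterisks mark an adjusted p under 0.05 over all genes of the line, and grey marks EIF4E3 in 697, which was not tested. EIF3D and EIF2A are blue in every line, EIF4EBP1 is red in every line but Nalm6, and EIF5 is red in CEM and blue in DND41.

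With 3 libraries per group, several of these counts depended on 1 library. For fits without 1 library, here and below, the share of all genes called is not given. A change shared with all genes therefore cannot be told from one particular to the members. Nalm6 called 3 members in place of 6 without L-asparaginase C. EIF2A, EIF3D and EIF4E3 held there whichever library was left out. SUPB15 called 7 in place of 14 without L-asparaginase B, the 7 that held throughout being EIF1, EIF2A, EIF3D, EIF4B, EIF4E2, EIF4EBP1 and EIF4EBP2. RS411 called 2, 1 and 0 members in place of 4 without L-asparaginase A, B and C, and 9 without untreated A, and no call there held throughout.

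In REH 8 calls became 4 without L-asparaginase B, 3 without C and 5 without untreated B, with EIF3J, EIF4EBP1 and EIF4G3 kept throughout. The letters of the column names paired the REH libraries, and with them as a block 15 members were called, as were 43% of all genes, the further 7 being EIF1 (0.28), EIF1AX (0.24), EIF2B1 (0.25), EIF3G (0.27), EIF3K (0.19), EIF4EBP2 and EIF4G2 (0.34). In 697 4 members were called without untreated 1. DND41 called 4 and 3 in place of 14 without L-asparaginase B and C, 6 without untreated B or C, and 21 without untreated A, and EIF3D, EIF3H and EIF5 held throughout. With the letters as a block DND41 called 21 members and 39.9% of all genes, the further 7 being EIF1 (0.34), EIF2A, EIF2S1 (0.38), EIF2S2, EIF3C (0.56), EIF3F (-0.32) and EIF4A3 (0.37). CEM held 9 of its 15 calls throughout, EIF1, EIF2A, EIF2S2, EIF3D, EIF3J, EIF4E2, EIF4EBP1, EIF4G3 and EIF5. In the mean response 15 of 19 calls held whichever of the 42 libraries was left out, all but EIF2B1, EIF2S2, EIF3B and EIF3L.

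Whether a response differed between lines was tested by an interaction term. It was called for 10 of 42 members (23.8%), where 19.4% of all genes were, namely EIF5, EIF3H, EIF4E2, EIF4E3, EIF4EBP1, EIF2S3, EIF3L, EIF3J, EIF4B and EIF4G3. EIF3A, with a range of 1.36 in the joint model between its lowest line (697) and highest (DND41), and EIF5B, with a range of 1.47, were not called. EIF3D and EIF2A were not called either, with ranges of 0.49 and 0.37. Without the 5 first untreated libraries 21 members had an interaction (32.5% of all genes), all 10 among them. Of the 10, 8 were called without the 3 treated libraries, 9 with the replicate block and as few as 7 with 1 library left out.

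The lines also differed before treatment. Untreated levels differed between lines for 36 of 42 members, in a comparison that called 86.7% of all genes, and the ratio of the highest to the lowest line had a median of 2.09 over members. EIF4E3 was at 0 in untreated 697 and at 3.58 CPM in untreated Nalm6, so that no ratio is given for it. EIF3E had the widest ratio of the other 41 members, 6.45, with 1678 ± 476 CPM in untreated 697 and 260.2 ± 40.4 CPM in untreated CEM (SD, n = 3 each). EIF3H had the same pair of extremes, with 598 ± 134 CPM in 697 and 216 ± 27.6 CPM in CEM. EIF5B spanned 4.36-fold, from 24.3 CPM in REH to 106 CPM in 697, a mean that holds the library at 218.5 CPM. CEM had the highest EIF6 (70.0 CPM) and EIF2B2 (41.6 CPM) levels, the lowest being 18.2 CPM in 697 and 11.5 CPM in SUPB15. EIF3M ranged from 144.7 CPM in SUPB15 to 472 CPM in DND41, and EIF4B from 726 CPM in DND41 to 1830 CPM in 697. All 697 means include untreated 1, which stood apart. For EIF3E it had 2199 CPM, against 1570.5 and 1265 CPM in untreated 2 and 3. It was also the highest of its group for EIF3H and EIF4B and the lowest for EIF6. The members not called were EIF3I, EIF3K, EIF4A1, EIF4E, EIF5A and EIF2S2. Levels of different genes are not compared, since CPM does not account for transcript length.

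**Figure D5:**
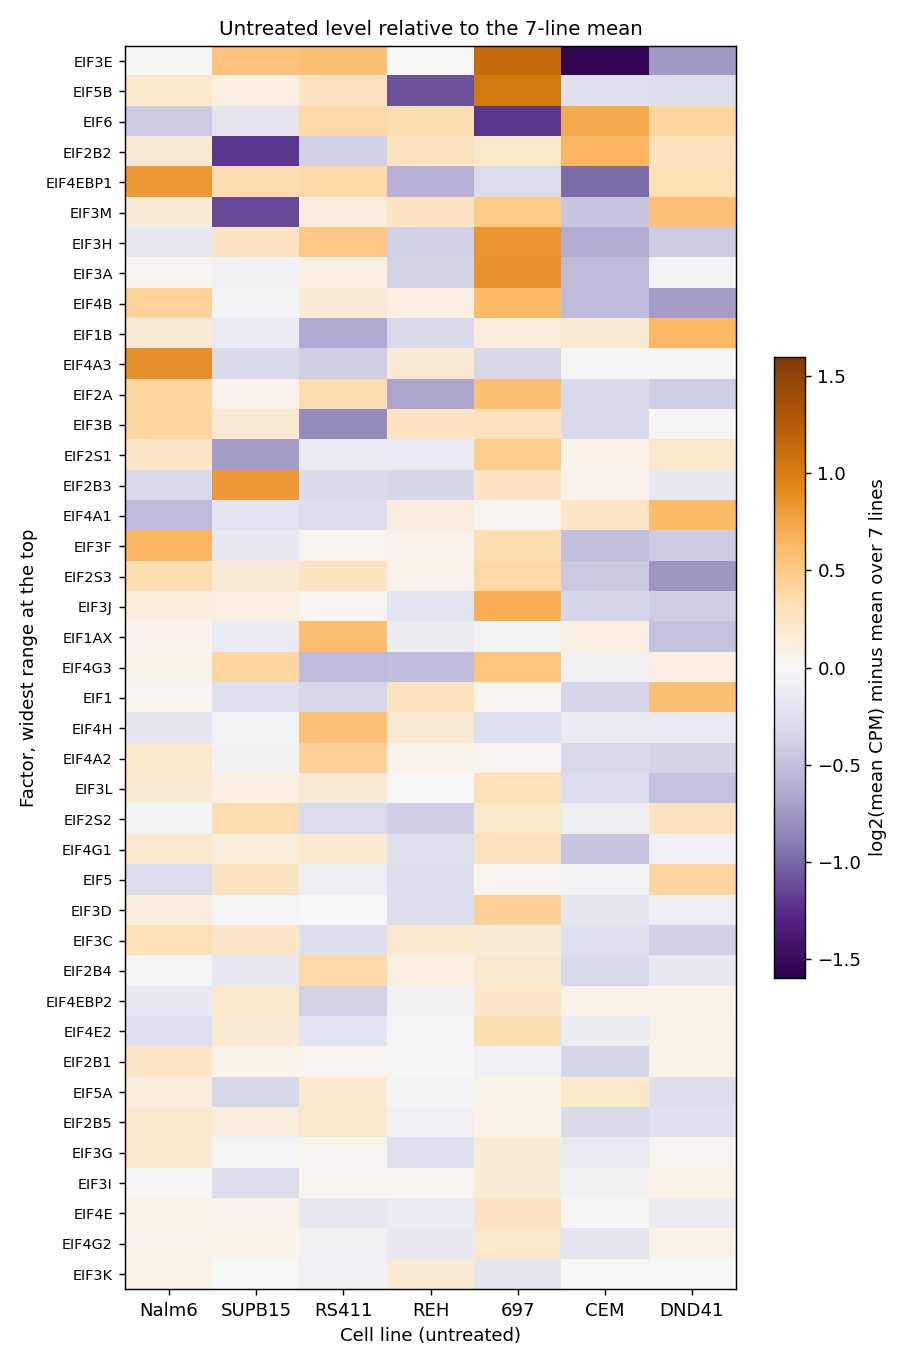
Untreated level of 41 members (y axis, widest range at the top) in 7 cell lines (x axis), as log2 of the group mean CPM minus its mean over the 7 lines, brown to orange for higher and purple for lower. EIF3E, at the top, is highest in 697 and lowest in CEM. EIF4E3, at 0 in 697, is left out.

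Other genes of the pathway were read from lists. Of 23 initiation partners with an estimable mean, 3 rose and 10 fell, with a median of -0.12 (56.5% called, against 37.4% of all genes). The largest changes were falls of MKNK2 (-0.78), a kinase of eIF4E, PAIP2 (-0.73), an inhibitor of poly(A)-binding protein, the helicase DDX3X (-0.65) and the ribosome recycling factor ABCE1 (-0.39). Among 9 genes for kinases and phosphatase subunits acting on eIF2 alpha, 4 rose and 3 fell (77.8% called, against the same 37.4%). EIF2AK3 (PERK) rose by 0.46, and EIF2AK2 (PKR) at -0.57, EIF2AK4 (GCN2, the sensor of uncharged tRNA) at -0.50 and EIF2AK1 (HRI) at -0.50 fell. Of 10 genes with an estimable mean on a list headed elongation and termination factors, EEF1E1 rose (0.25) and 8 were not called. EEF1E1 is listed under its symbol, which alone does not show that it acts in elongation. EEF2K, the kinase of elongation factor EEF2, fell (-0.17). That is 20% called, against 37.4% of all genes. The median SE was 0.061 for the partners, 0.066 for the kinases and phosphatase subunits and 0.064 for this last list, against 0.137 for all genes.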

How the data were processed

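The authors deposited 1 table per line of whole-number read counts per gene symbol, not normalized, per the file headers. The submitters' processing notes name the hg19 build. For aligner, counting tool, annotation and strand nothing is given in the sources used here, and overlapping genes are not told apart. Columns of 697 carry replicate numbers; those of the other lines carry letters that no label mentions, and each stands for 1 replicate within its group. The tables were joined on symbol. Between 26 and 28 names per table had become calendar dates, and repeated names, at most 2 in a table, were left out. Counts of replicates differed beyond sampling noise (lowest chi-square 15 per degree of freedom).

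Each line was fitted on its 6 libraries with edgeR 4.0.16 in R 4.3.3 (TMM, filterByExpr with a minimum count of 10, glmQLFit, glmQLFTest), with Benjamini-Hochberg adjustment over all genes and a call at an adjusted p under 0.05. A joint model of 42 libraries with 14 groups gave the mean response, the interaction, untreated differences and each line against the mean of the others. Log2 fold changes of single lines come from their own model, and those of contrasts between lines from the joint one. A gene at 0 in every library of a line has no mean response over 7 lines. CPM values use the joint TMM factors. SE is the absolute log2 fold change over the square root of F. In joint fits without 1 library, the dispersion trend of all 42 was kept. Same-lettered libraries were taken as paired where all 3 correlations of their deviations exceeded 0.1. This held in DND41 (lowest 0.35), CEM (0.168), REH (0.331), RS411 (0.101) and SUPB15 (0.153), not in 697 (-0.075) or Nalm6 (0.053). Between different letters the highest correlation was 0.28 in DND41, -0.01 in CEM and REH, 0.24 in RS411 and 0.11 in SUPB15. In RS411 that exceeded the lowest same-lettered value, so the pairing there is doubtful.

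Members given in full were those called on average with a log2 fold change of at least 0.3, those called in at least 3 lines with a single sign, and the 6 called interaction members with the widest range; others named are members or the up to 4 largest changes of a list. Members and lists were chosen with earlier results of these data known. Alternatives were DESeq2 1.42.0, its size factors, no filter on low counts, the replicate block and leaving out libraries. Scripts were tested on simulated data. Transcript starts come from RefSeq.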

Additional observations from a re-analysis of the deposited data

Results flagged for a closer look

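The response to L-asparaginase differed between the 7 lines for 10 members, by the interaction test of the joint edgeR model (adjusted p over all genes). The adjusted p was 0.000143 for EIF5, higher in treated CEM and lower in treated DND41. For EIF3H it was 0.00144, with the largest fall in DND41. For EIF4E2 it was 0.00294, with falls called in SUPB15, RS411, CEM and DND41 and values near 0 in Nalm6 and REH. EIF4E3 had 0.00793, a test to which 697 adds nothing because the gene had no counts there. EIF4EBP1 had 0.0109, with no rise in Nalm6. EIF2S3 had 0.0119, with its fall in SUPB15. EIF3L had 0.0156 and EIF3J 0.0292, and for both the value of 697 includes untreated 1, a library that stood apart. EIF4B had 0.0418, with its largest fall in SUPB15, and EIF4G3 had 0.0449, higher in treated REH and lower in treated CEM. All 10 were still called without the 5 first untreated libraries, which stood apart from their groups, and by DESeq2. With DESeq2 size factors 8 of them were, without the 3 treated libraries 8, with the replicate block 9, and with 1 library left out as few as 7.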

How the results depend on the processing

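Counts of called members moved by more than 1.5 times under these settings, and the share of all genes called under the same setting is given with each. RS411 had 4 calls (12.8%), and 7 with no filter on low counts (8.67%) and 8 by DESeq2 (18.1%). REH had 8 (26.5%), and 15 with the replicate block (43%). In 697 there were 0 (2.4%), and 1 with no filter (1.91%) and 1 by DESeq2 (10.8%). The mean response (37.4% in either direction) had 8 rises, and 13 without the 5 first untreated libraries (40%), and 11 falls, and 7 with no filter (20%). The interaction had 10 (19.4%), and 21 without the 5 libraries (32.5%) and 16 by DESeq2 (28%). With the replicate block, DND41 had 21 calls (39.9%), Nalm6 9 (25.2%), RS411 5 (16.9%), and SUPB15 and CEM as many as without it (14 and 15). In the lines that the letters pair, the block ended the call of EIF4E3 in SUPB15 and no other line call. With 1 library left out, DND41 had 3 to 21 calls, CEM 10 to 17, 697 0 to 4, REH 3 to 9, RS411 0 to 9 (2 without L-asparaginase A), SUPB15 7 to 20 and Nalm6 3 to 6. The ranges were 6 to 10 rises and 9 to 12 falls in the mean response, 7 to 15 for the interaction and 34 to 38 for untreated levels. For fits with 1 library left out, no share of all genes is given. In the mean response without the 5 libraries the sign turned, with a call, for EIF4G3 (0.11) and EIF5A (-0.15), and without one for EIF5B (0.12), EIF4A3 (-0.07), EIF4H (-0.06), EIF3M (0.02) and EIF5 (0.03). Among single lines it turned, with a call, for EIF5B in SUPB15 without untreated A (0.44, against -0.16) and for EIF2S2 in 697 without untreated 1 (0.48, against -0.32). The cause was not tested. Of 19 calls in the mean response, 13 held under every setting tried, all but EIF2B1, EIF2S2, EIF2S3, EIF3B, EIF3F and EIF3L. Depth limits EIF4E3, with under 4 CPM in every library.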
